A study of Mus musculus with 17 samples.

Results

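Ribosome biogenesis genes were examined in intestinal stem cells of LGR5-GFPki mice, separated by flow cytometry into LGR5hi and LGR5lo fractions. The line carries a GFP reporter for Lgr5. The set held 42 genes, taken by name and by their roles in making ribosomal subunits, and all 42 were found among the 27780 genes measured. The set carried 63 probes, and where a gene had several the brightest one stood for it. Each cell sample was read on a one-colour microarray as a level, the log2 of the processed signal minus the 75th percentile of the same array. The arrays fell into 4 groups. LGR5hi cells were sorted 3 h after 12 Gy of gamma-irradiation (4 arrays) or from mice that were not irradiated (4 arrays). LGR5lo cells were sorted at the same time after the same dose (4 arrays) or from mice that were not irradiated (5 arrays). All mice carried the LGR5-GFPki allele, both sexes were in every group, and the labels gave neither their age nor whether samples were pooled. The labels did not say how the GFP gates were set. They numbered the arrays of a group without saying that each came from its own animal, so the p-values measure the spread between these samples.

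Ribosomes are assembled in the nucleolus. RNA polymerase I copies the ribosomal DNA into a long precursor RNA, guide particles of the box C/D and box H/ACA kinds modify it, the small subunit processome folds and cuts its front part, and a separate set of factors assembles the large subunit. Proliferating crypt cells make many ribosomes, and the transcription factor MYC is known to activate many of the genes involved. When assembly is disturbed, free ribosomal proteins can bind MDM2 and so stabilise p53.

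The arrays followed their labels. Lgr5 was 2.89 ± 0.29 higher on the log2 scale in LGR5hi than in LGR5lo cells after irradiation and 3.14 ± 0.28 higher without it (difference ± SE), and Cdkn1a, the p53 target that encodes p21, was 4.91 ± 0.31 higher after irradiation in LGR5hi cells and 2.90 ± 0.30 higher in LGR5lo cells. All 10 genes of a p53 target list rose in both sorts. The arrays' 75th percentiles ranged from 286 to 627 units of processed signal. One array stood apart: on replicate 2 of the non-irradiated LGR5lo group 95.6% of spots were above background, against 58.9% to 73.9% on the other whole arrays. Another array, replicate 1 of the non-irradiated LGR5hi group, was rebuilt from the authors' value table because its scanner file could be read only in part. The level was relative to the whole array, and in bulk samples like these fewer cells of a type and less RNA per cell cannot be told apart.

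Irradiation was followed by higher levels of part of the set in both sorts. In LGR5hi cells 14 of the 42 genes rose and 0 fell at an adjusted p below 0.05 (limma over all genes, Benjamini-Hochberg). Of all genes tested in that comparison 6.18% rose and 7.28% fell. In LGR5lo cells likewise 14 rose and 0 fell, where 4.47% of all genes rose and 3.01% fell. The differences were small for most of the set: the median was 0.43 in LGR5hi cells, against -0.02 over all genes, and 0.54 in LGR5lo cells, against -0.13 over all genes. The difference was positive for 40 of 42 genes in LGR5hi cells and for 42 of 42 in LGR5lo cells, where 48.0% and 39.8% of all genes were positive. Without the LGR5lo array that stood apart the LGR5lo median was 0.43, against -0.11 over all genes, and 41 of 42 differences were positive. The irradiated arrays lay wholly above the non-irradiated arrays for 21 genes in LGR5hi cells and 15 in LGR5lo cells, which held for 10.8% and 5.94% of all genes. At an unadjusted p below 0.05 there were 24 and 30 of 42, where 23.2% and 24.1% of all genes passed.

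**Figure D1:**
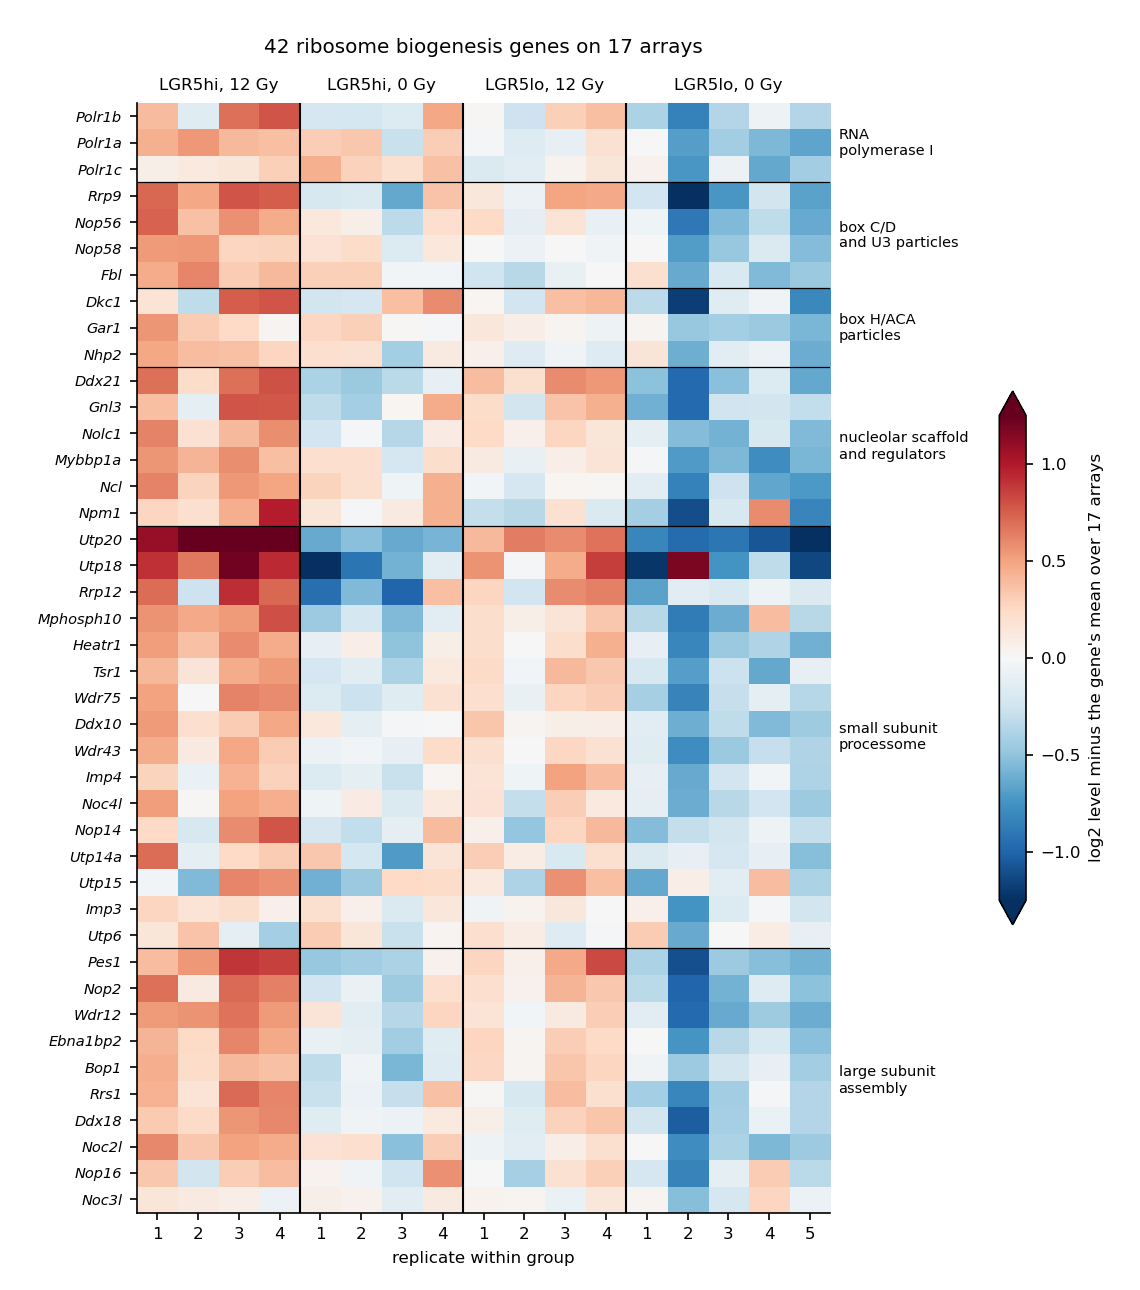
Level of each of the 42 genes (rows, grouped by role) on each of the 17 arrays (columns), as the log2 difference from the gene's own mean over the arrays. Red cells gather in the columns of irradiated LGR5hi cells and blue cells in those of non-irradiated LGR5lo cells, most of all in replicate 2 of that group.

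The same genes made up most of both counts. In both sorts 11 genes rose: Rrp9 of the U3 particle, the nucleolar proteins Ddx21 and Nolc1, the small subunit factors Utp20, Heatr1 and Tsr1, and the large subunit factors Pes1, Bop1, Wdr12, Nop2 and Ebna1bp2. Over all 27780 genes 1003 rose in both sorts. Utp18, Rrp12 and Mphosph10 passed the threshold in LGR5hi cells and not in LGR5lo cells, and Ddx10, Mybbp1a and Wdr43 in LGR5lo cells and not in LGR5hi cells. The other 25 genes passed in neither. The irradiation effects in the sorts were compared directly in the same fit, and 0 of 42 genes differed between the sorts (limma, adjusted p below 0.05), where 0.0396% of all genes did. At an unadjusted p below 0.05 there was 1 of 42 (6.8% of all genes), Polr1c, with an effect in LGR5hi minus that in LGR5lo cells of -0.50 ± 0.23 (95% interval -0.99 to -0.00, adjusted p = 0.715). The sorts share no arrays, but their counts are not independent: same-numbered arrays of an arm deviated together (r 0.122 to 0.457 in 8 pairs), and 1 fit with a shared estimate of the spread gave both.

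**Figure D2:**
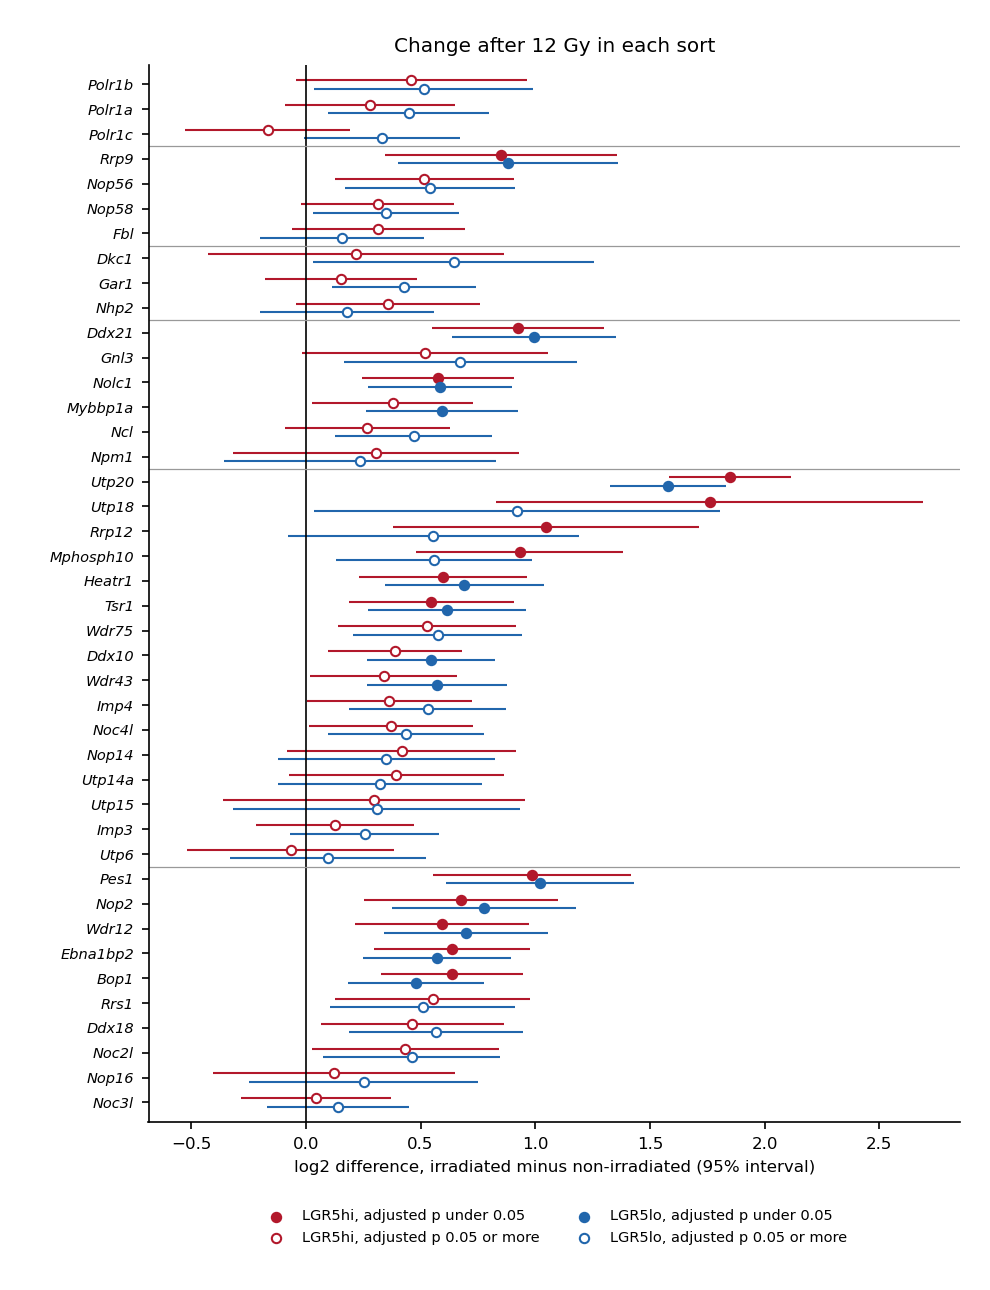
Log2 difference of irradiated minus non-irradiated cells for each gene in LGR5hi (red) and LGR5lo (blue) cells, with 95% intervals from limma; filled points had an adjusted p below 0.05. Utp20 lies apart from the rest at 1.85 and 1.58, and 40 of 42 points in LGR5hi cells and 42 of 42 in LGR5lo cells lie right of 0.

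Utp20 had the smallest p of the set in both sorts. Its protein is a very large component of the small subunit processome. On the LGR5hi arrays its level was 2.29, 2.50, 2.56 and 2.46 after irradiation, against 0.56, 0.67, 0.57 and 0.62 without it. On the LGR5lo arrays it was 1.60, 1.83, 1.79 and 1.88 after irradiation, against 0.38, 0.23, 0.29, 0.13 and -0.05 without it. Every irradiated array of a sort was more than 1 log2 unit above every non-irradiated one, and the 4 groups did not overlap at all. The difference was 1.85 ± 0.12 in LGR5hi cells (a 3.60-fold higher level, limma adjusted p = 8.67e-08), larger than that of 97.8% of all genes, and 1.58 ± 0.12 in LGR5lo cells (2.99-fold, adjusted p = 5.47e-07), larger than that of 98.5%. It stayed between 1.73 and 1.92 in LGR5hi cells and between 1.41 and 1.70 in LGR5lo cells under all 32 alternatives tried, and passed the threshold in 32 and 31 of them. The probe lies on the minus strand of chromosome 10, bases 88209709 to 88209768 of mouse build mm9.

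Ddx21, an RNA helicase that acts in rRNA transcription and processing, had the next smallest p in both sorts. Its level in LGR5hi cells was 4.10, 3.65, 4.11 and 4.21 after irradiation, against 3.02, 2.95, 3.09 and 3.31 without it, and in LGR5lo cells 3.80, 3.62, 4.01 and 3.96 after irradiation, against 2.90, 2.45, 2.89, 3.25 and 2.78 without it. Irradiated and non-irradiated arrays did not overlap in either sort. The differences were 0.93 ± 0.18 in LGR5hi cells (limma adjusted p = 0.00192) and 0.99 ± 0.17 in LGR5lo cells (adjusted p = 0.00156). A dimmer Ddx21 probe gave 0.59 and 0.47.

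Pes1, Bop1 and Wdr12 encode the 3 proteins of the PeBoW complex, which is needed for large subunit rRNA processing, and all 3 rose in both sorts. Pes1 read 3.02, 3.17, 3.52 and 3.49 in irradiated LGR5hi cells, against 2.15, 2.19, 2.24 and 2.68 in non-irradiated ones, a difference of 0.99 ± 0.20 (limma adjusted p = 0.00344). In LGR5lo cells it read 2.90, 2.69, 3.11 and 3.45 after irradiation, against 2.24, 1.54, 2.18, 2.10 and 2.04 without it, a difference of 1.02 ± 0.19 (adjusted p = 0.00364). The groups did not overlap in either sort, but a dimmer Pes1 probe gave only 0.18 and 0.23, and the mean of both probes did not pass the threshold. Bop1 read 4.11, 3.89, 4.07 and 4.03 in irradiated LGR5hi cells, against 3.34, 3.62, 3.09 and 3.50 in non-irradiated ones, and 3.92, 3.69, 4.01 and 3.93 in irradiated LGR5lo cells, against 3.61, 3.20, 3.43, 3.56 and 3.23 in non-irradiated ones. Its groups also did not overlap, and the differences were 0.64 ± 0.15 and 0.48 ± 0.14 (adjusted p = 0.00726 and 0.0466); the second was past the threshold in 10 of 32 alternatives. Wdr12 read 3.44, 3.48, 3.60 and 3.45 in irradiated LGR5hi cells, against 3.08, 2.78, 2.56 and 3.18 in non-irradiated ones, and 3.09, 2.88, 3.03 and 3.22 in irradiated LGR5lo cells, against 2.78, 1.94, 2.28, 2.47 and 2.30 in non-irradiated ones. The Wdr12 differences were 0.59 ± 0.18 and 0.70 ± 0.17 (limma adjusted p = 0.036 and 0.0185), or 0.98 and 1.08 by a dimmer probe, and its groups did not overlap.

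**Figure D3:**
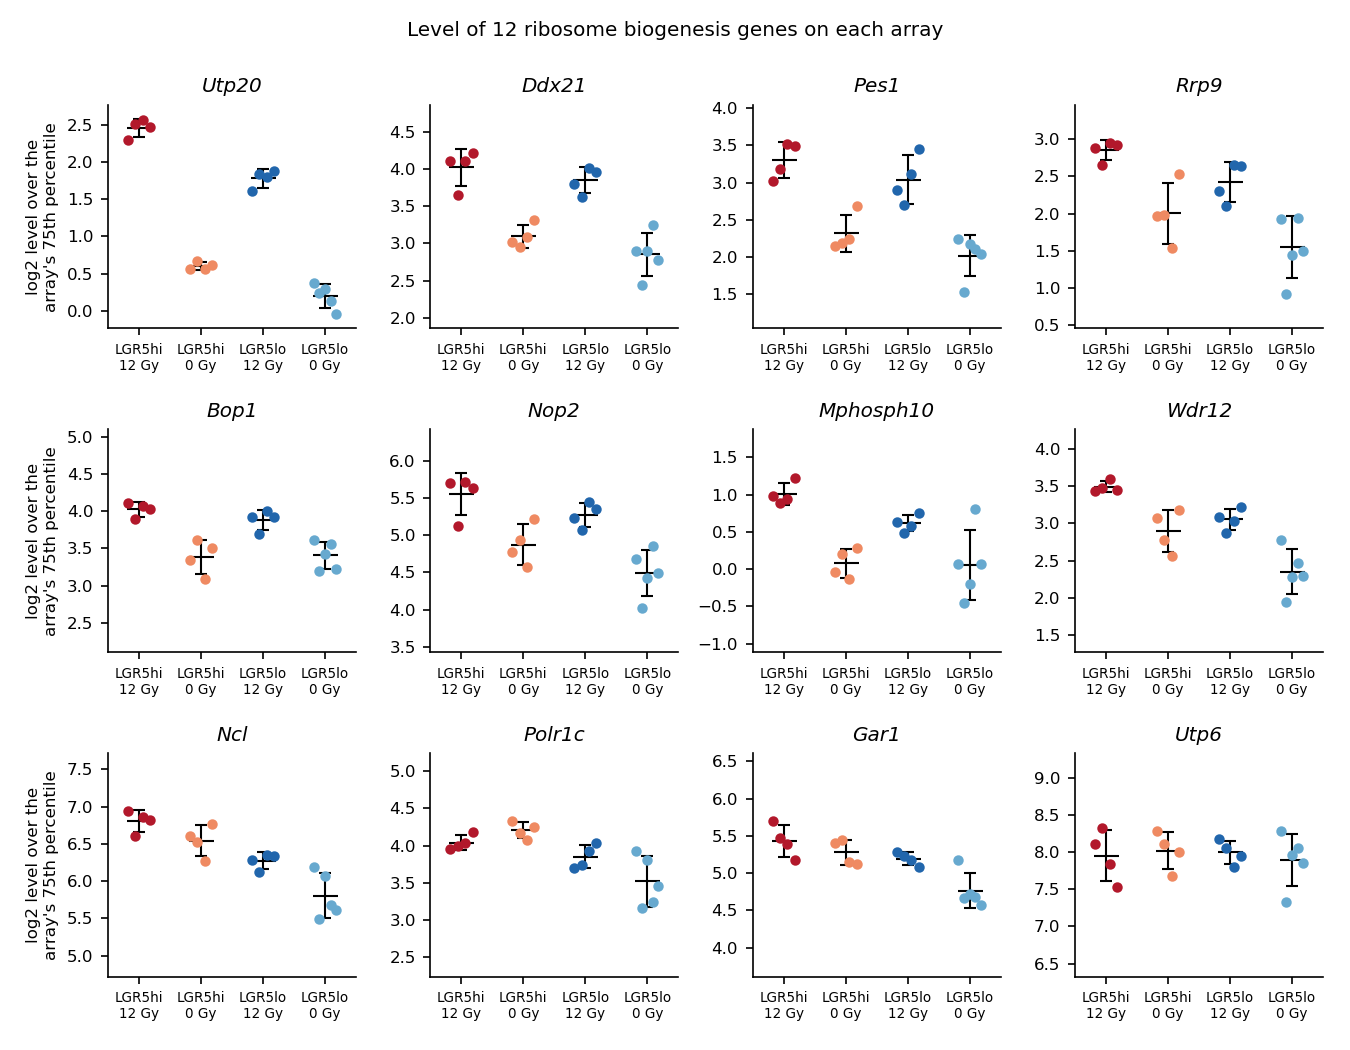
Level of 12 of the genes on each array (points), with the mean and SD of each group; every panel spans 3 log2 units. Utp20, Ddx21, Pes1 and Bop1 separate irradiated from non-irradiated arrays in both sorts, while Utp6 overlaps in every pair of groups and Ncl separates LGR5hi from LGR5lo cells in both arms.

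The promoter windows of the 3 genes with the smallest p ranks summed over both sorts are shown. The rule also took the gene with the largest summed rank, Utp6, for which no window was at hand. The windows are RefSeq's (GRCm38.p6), 250 bases before to 50 after the transcript start, read 5′ to 3′ on the gene's strand, and capitals mark the hexamer CACGTG, the letters that MYC and related factors are known to bind.
Utp20: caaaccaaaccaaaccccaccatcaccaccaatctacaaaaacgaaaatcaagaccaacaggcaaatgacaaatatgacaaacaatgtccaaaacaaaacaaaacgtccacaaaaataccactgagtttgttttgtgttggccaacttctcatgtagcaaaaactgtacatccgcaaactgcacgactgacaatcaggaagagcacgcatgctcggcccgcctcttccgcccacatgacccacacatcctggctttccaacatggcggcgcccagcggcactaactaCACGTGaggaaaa
Ddx21: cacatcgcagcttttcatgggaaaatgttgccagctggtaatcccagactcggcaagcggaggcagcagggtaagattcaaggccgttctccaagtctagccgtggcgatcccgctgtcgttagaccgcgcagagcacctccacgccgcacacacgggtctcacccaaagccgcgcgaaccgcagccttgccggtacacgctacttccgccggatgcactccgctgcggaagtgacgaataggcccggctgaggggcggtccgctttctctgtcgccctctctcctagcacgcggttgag
Pes1: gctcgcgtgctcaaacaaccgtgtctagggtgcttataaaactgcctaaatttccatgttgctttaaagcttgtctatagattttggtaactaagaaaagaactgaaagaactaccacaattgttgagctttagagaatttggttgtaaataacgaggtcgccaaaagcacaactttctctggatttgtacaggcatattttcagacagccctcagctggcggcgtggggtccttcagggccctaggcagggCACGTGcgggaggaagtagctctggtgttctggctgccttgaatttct
The Utp20 window is chr10:88826765-88827064 (minus strand), with CACGTG starting 38 bases after the transcript start. The Ddx21 window is chr10:62602249-62602548 (minus strand) and held none of the motifs searched. The Pes1 window is chr11:3963725-3964024 (plus strand), with CACGTG starting 3 bases after the start.

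Windows were at hand for 36 of the 42 genes, without Bop1, Fbl, Npm1, Rrp12, Rrs1 and Utp6, and 4 motifs were searched on both strands. CACGTG was in the windows of 8 of 36 genes (22.2%), namely Imp4, Mybbp1a, Nop2, Pes1, Tsr1, Utp18, Utp20 and Wdr43, against 8.09% of 27025 genes with windows of this length and 10.3% of the 13298 protein-coding genes tested. Of the 15 genes with a window that rose in at least 1 sort 7 held it, and of the other 21 genes 1 did, a split made after these values were seen. CCGGAAG, the core that ETS factors are known to bind, was in 13 of 36 (36.1%), against 9.93% of all genes and 15.9% of the protein-coding ones. It was in 8 of the 15 and in 5 of the other 21. The palindromic NRF1 motif was in 0 of 36 (1.07% of all genes) and AAGATGGCG, the YY1 motif, in 1 of 36, Imp4 (1.64% of all genes). No motif contains another, and these are counts of letters in a window, not of bound sites.

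Small subunit factors held the widest range of differences. In LGR5hi cells 6 of 16 rose and in LGR5lo cells 5 of 16, where 6.18% and 4.47% of all genes rose. Mphosph10, the scaffold of a complex with Imp3 and Imp4 that holds the U3 particle on the precursor, read 0.97, 0.89, 0.94 and 1.22 in irradiated LGR5hi cells, against -0.04, 0.20, -0.14 and 0.28 in non-irradiated ones (0.93 ± 0.21, limma adjusted p = 0.00672). In LGR5lo cells it read 0.63, 0.49, 0.58 and 0.75 after irradiation, against 0.07, -0.46, -0.20, 0.80 and 0.07 without it, with overlap at 1 non-irradiated array (0.56 ± 0.20, adjusted p = 0.11). A slightly dimmer Mphosph10 probe gave 0.68 in LGR5hi and 0.91 in LGR5lo cells, so which sort had the larger difference depended on the probe. The partners of Mphosph10 did not pass: Imp4 differed by 0.36 and 0.53, and Imp3 by 0.13 and 0.26, in LGR5hi and LGR5lo cells in that order.

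Utp18, of the UTP-B part of the processome, had the second largest difference of the set in LGR5hi cells and by far the lowest signal relative to its array. It read -3.61, -3.87, -3.32 and -3.59 in irradiated LGR5hi cells, against -6.21, -5.44, -5.11 and -4.66 in non-irradiated ones (1.76 ± 0.44, adjusted p = 0.0122 from limma). In LGR5lo cells it read -3.96, -4.54, -4.06 and -3.66 after irradiation, against -5.74, -3.35, -5.27, -4.84 and -5.66 without it (0.92 ± 0.42, adjusted p = 0.192). The probe was above background on all 8 irradiated arrays but on only 2 of 3 flagged non-irradiated LGR5hi arrays and 2 of 5 non-irradiated LGR5lo arrays, so part of its low values are not measured levels. The highest of them, -3.35, came from the LGR5lo array that stood apart. Correcting the background by normexp shrank the LGR5hi difference to 0.47, no longer past the threshold.

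Heatr1, Wdr43 and Wdr75 belong to the part of the processome that is also tied to rDNA transcription. Heatr1 read 4.62, 4.46, 4.69 and 4.56 in irradiated LGR5hi cells, against 3.99, 4.18, 3.59 and 4.17 in non-irradiated ones, and 4.31, 4.09, 4.32 and 4.54 in irradiated LGR5lo cells, against 3.99, 3.28, 3.63, 3.72 and 3.50 in non-irradiated ones. It rose without overlap in both sorts, by 0.60 ± 0.17 and 0.69 ± 0.16 (limma adjusted p = 0.0291 and 0.0165). Wdr43 read 3.16, 2.81, 3.17 and 3.01 in irradiated LGR5hi cells, against 2.62, 2.66, 2.59 and 2.93 in non-irradiated ones, and 2.89, 2.70, 2.95 and 2.88 in irradiated LGR5lo cells, against 2.55, 1.91, 2.23, 2.41 and 2.32 in non-irradiated ones. It passed in LGR5lo cells (0.57 ± 0.14, adjusted p = 0.0224) and not in LGR5hi cells (0.34 ± 0.15, adjusted p = 0.182). Wdr75 missed the threshold in both, at 0.53 and 0.58 (adjusted p = 0.0725 and 0.0568).

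Ddx10, the mouse counterpart of a yeast helicase that frees a guide RNA from the precursor, read 0.94, 0.62, 0.72 and 0.89 in irradiated LGR5hi cells, against 0.54, 0.29, 0.39 and 0.40 in non-irradiated ones, and 0.75, 0.44, 0.48 and 0.49 in irradiated LGR5lo cells, against 0.28, -0.20, 0.09, -0.15 and -0.04 in non-irradiated ones. Irradiated and non-irradiated arrays did not overlap in either sort, with 0.39 ± 0.14 in LGR5hi cells (limma adjusted p = 0.0802) and 0.54 ± 0.13 in LGR5lo cells (adjusted p = 0.0182). Tsr1, a late small subunit factor, rose by 0.55 ± 0.17 and 0.61 ± 0.16 in LGR5hi and LGR5lo cells (adjusted p = 0.0432 and 0.0292), and the first of these was past the threshold in 16 of 32 alternatives. The mean of its probes did not pass in LGR5lo cells (0.53, adjusted p = 0.0671). Rrp12, known for its part in the export of precursor particles, rose by 1.05 ± 0.31 in LGR5hi cells (adjusted p = 0.0364) although 1 irradiated array, at 0.15, lay below a non-irradiated one at 0.79. Utp14a, Utp15, Nop14 and Noc4l did not pass in either sort, with differences between 0.29 and 0.44 by their brightest probes. A dimmer Utp14a probe gave 0.10 in LGR5hi and 1.41 in LGR5lo cells.

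Utp6, another UTP-B protein, came last of the set by its ranks of p summed over both sorts. It read 8.11, 8.32, 7.83 and 7.54 in irradiated LGR5hi cells, against 8.28, 8.11, 7.68 and 7.99 in non-irradiated ones, and 8.17, 8.05, 7.80 and 7.94 in irradiated LGR5lo cells, against 8.28, 7.34, 7.96, 8.05 and 7.85 in non-irradiated ones. The groups overlapped throughout, and the 95% intervals of the difference, -0.52 to 0.38 and -0.33 to 0.52, lay below the Utp20 intervals of 1.58 to 2.11 and 1.33 to 1.83. A second, far dimmer Utp6 probe gave -0.34 and -1.14. Its mean level was -4.50, against 7.96 for the brightest probe, and it was above background on 13 of 16 arrays with flags.

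Of the large subunit factors 5 of 10 rose in each sort, and they were the same 5: Pes1, Bop1, Wdr12, Nop2 and Ebna1bp2. The shares over all genes were 6.18% in LGR5hi cells and 4.47% in LGR5lo cells. Nop2, an rRNA methyltransferase and classical proliferation antigen, read 5.70, 5.12, 5.72 and 5.64 in irradiated LGR5hi cells, against 4.77, 4.93, 4.56 and 5.22 in non-irradiated ones, and 5.22, 5.06, 5.44 and 5.35 in irradiated LGR5lo cells, against 4.67, 4.02, 4.42, 4.85 and 4.50 in non-irradiated ones. It rose by 0.67 ± 0.20 and 0.78 ± 0.19 (limma adjusted p = 0.0332 and 0.0192), with overlap in LGR5hi cells at 1 irradiated array. Ebna1bp2, the counterpart of a yeast factor of large subunit assembly, read 5.41, 5.23, 5.59 and 5.46 in irradiated LGR5hi cells, against 4.89, 4.87, 4.55 and 4.83 in non-irradiated ones, and 5.25, 5.02, 5.29 and 5.23 in irradiated LGR5lo cells, against 4.98, 4.25, 4.63, 4.79 and 4.46 in non-irradiated ones. Its differences were 0.64 ± 0.16 and 0.57 ± 0.15 without overlap, its second probe gave 0.60 and 0.44, and its dimmest probe 0.09 and -0.14. The mean of its probes gave 0.44 and 0.29 and did not pass in either sort (adjusted p = 0.0512 and 0.191).

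The other 5 large subunit factors did not pass. Rrs1, Ddx18 and Noc2l differed by 0.55, 0.46 and 0.43 in LGR5hi cells and by 0.51, 0.57 and 0.46 in LGR5lo cells, near the median of the set. Noc3l and Nop16 came just before Utp6 by their summed ranks of p. Nop16 read 2.66, 2.09, 2.62 and 2.70 in irradiated LGR5hi cells, against 2.36, 2.27, 2.07 and 2.89 in non-irradiated ones, and 2.31, 1.90, 2.50 and 2.62 in irradiated LGR5lo cells, against 2.10, 1.48, 2.20, 2.63 and 1.98 in non-irradiated ones. Noc3l read 1.31, 1.27, 1.24 and 1.08 in irradiated LGR5hi cells, against 1.23, 1.21, 1.02 and 1.27 in non-irradiated ones, and 1.20, 1.19, 1.07 and 1.30 in irradiated LGR5lo cells, against 1.19, 0.62, 0.95, 1.42 and 1.08 in non-irradiated ones. Both overlapped in each sort, with differences of 0.12 and 0.25 for Nop16 and 0.04 and 0.14 for Noc3l.

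Of the 6 nucleolar scaffold and regulator genes 2 rose in LGR5hi cells and 3 in LGR5lo cells. The shares over all genes were 6.18% and 4.47%. Nolc1, a chaperone of guide particles, read 4.39, 3.96, 4.17 and 4.35 in irradiated LGR5hi cells, against 3.53, 3.76, 3.41 and 3.87 in non-irradiated ones, and 4.02, 3.83, 4.04 and 3.92 in irradiated LGR5lo cells, against 3.64, 3.23, 3.17, 3.57 and 3.22 in non-irradiated ones. The differences were 0.58 ± 0.16 and 0.58 ± 0.15 (limma adjusted p = 0.0204 and 0.0238) without overlap, and 0.31 in both sorts by a dimmer probe; the mean of both probes, 0.44 and 0.45, did not pass (adjusted p = 0.122 and 0.116). Mybbp1a, a nucleolar MYB-binding protein that is also known to promote p53 acetylation, read 6.03, 5.91, 6.06 and 5.85 in irradiated LGR5hi cells, against 5.69, 5.69, 5.26 and 5.70 in non-irradiated ones, and 5.59, 5.38, 5.56 and 5.64 in irradiated LGR5lo cells, against 5.46, 4.77, 4.91, 4.70 and 4.90 in non-irradiated ones. It passed in LGR5lo cells (0.59 ± 0.16, adjusted p = 0.03) and not in LGR5hi cells (0.38 ± 0.17). Gnl3, which encodes nucleostemin, differed by 0.52 and 0.67, and Npm1, the abundant chaperone nucleophosmin, by 0.31 and 0.24. Neither passed. The dimmer Npm1 probes gave 0.22 to 0.56 in LGR5hi cells and 0.31 to 0.83 in LGR5lo cells.

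Few of the RNA polymerase I subunits and guide particle proteins passed, where 6.18% and 4.47% of all genes rose in LGR5hi and LGR5lo cells. Of the 3 polymerase subunits 0 passed in either sort at the adjusted threshold (limma; 0 in LGR5hi cells and 2 in LGR5lo cells had an unadjusted p below 0.05). Polr1b, the second largest subunit, read 2.55, 2.01, 2.85 and 2.95 in irradiated LGR5hi cells, against 1.95, 1.94, 1.99 and 2.64 in non-irradiated ones, and 2.18, 1.90, 2.46 and 2.53 in irradiated LGR5lo cells, against 1.76, 1.32, 1.79, 2.10 and 1.80 in non-irradiated ones, with overlap in both. Polr1a, the largest subunit, differed by 0.28 and 0.45, and Polr1c, shared with RNA polymerase III, by -0.17 and 0.33. Of the box C/D and U3 proteins 1 of 4 passed in each sort, Rrp9, which is specific to the U3 particle. It read 2.88, 2.65, 2.95 and 2.93 in irradiated LGR5hi cells, against 1.97, 1.99, 1.53 and 2.53 in non-irradiated ones, and 2.31, 2.10, 2.66 and 2.64 in irradiated LGR5lo cells, against 1.93, 0.93, 1.44, 1.94 and 1.51 in non-irradiated ones, a rise of 0.85 ± 0.24 and 0.88 ± 0.23 (adjusted p = 0.0246 and 0.0259) without overlap. The core proteins of those particles, the methyltransferase Fbl and its partners Nop56 and Nop58, differed by 0.32, 0.52 and 0.31 in LGR5hi cells and by 0.16, 0.54 and 0.35 in LGR5lo cells. Of the box H/ACA proteins 0 of 3 passed (limma; 0 in LGR5hi cells and 2 in LGR5lo cells at an unadjusted p below 0.05). The pseudouridine synthase Dkc1 and its partners Gar1 and Nhp2 differed by 0.22, 0.15 and 0.36 in LGR5hi cells and by 0.64, 0.43 and 0.18 in LGR5lo cells.

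The counts of 14 rested on several arrays each. In LGR5hi cells 7 genes passed without irradiated replicate 1, 7 without irradiated replicate 4, 7 without non-irradiated replicate 3, 8 without irradiated replicate 3, 8 without non-irradiated replicate 1 (the rebuilt array) and 9 without non-irradiated replicate 2. The share of all genes that rose was 5.14% without irradiated replicate 1 and 5.04% without irradiated replicate 3. It was 5.06%, 5.13% and 5.1% without non-irradiated replicates 1, 2 and 3. In LGR5lo cells 5 passed without irradiated replicate 1 and 4 without irradiated replicate 3 or replicate 4. Of all genes 3.05% rose without irradiated replicate 1 and 2.88% without irradiated replicate 3. Without the LGR5lo array that stood apart 19 rose in LGR5hi cells and 14 in LGR5lo cells, where 8.52% and 4.93% of all genes rose. Within a slide (replicates 1 and 2 of each group on slide 1, replicates 3 and 4 on slide 2, with non-irradiated LGR5lo replicate 5 on neither) the median difference was 0.34 on slide 1 and 0.55 on slide 2 in LGR5hi cells, where 1 and 3 genes passed, and it was 0.44 and 0.52 in LGR5lo cells, where 0 and 1 passed (limma; 6 and 21 at an unadjusted p below 0.05). The difference was positive for 40 or 41 of 42 genes in each of these. Among all genes 0.727% and 3.22% rose on slides 1 and 2 in LGR5hi cells, and 0.119% and 1.16% in LGR5lo cells. On both slides Utp20 was 1.78 and 1.92 higher in irradiated LGR5hi cells and 1.41 and 1.62 higher in irradiated LGR5lo cells. Beside these rises all 13 G2 and mitosis markers fell in LGR5hi cells and 10 of 13 in LGR5lo cells, with list means of 0.47 to 0.75 after irradiation against 2.40 to 3.07 without it in LGR5hi cells, and 0.76 to 1.16 after irradiation against 1.65 to 2.58 without it in LGR5lo cells. Of 11 crypt stem cell markers 5 fell in LGR5hi cells and 4 in LGR5lo cells. All 7 Paneth cell markers tested had positive differences in each sort, with medians of 0.49 and 0.77, larger than those of the set; 1 passed in LGR5hi cells (Pla2g2a, 1.12 ± 0.34, limma adjusted p = 0.0355) and 0 in LGR5lo cells (3 at an unadjusted p below 0.05). The Paneth list averaged 3.91 to 4.80 after irradiation against 3.05 to 4.04 without it in LGR5hi cells, and 4.42 to 5.90 after irradiation against 3.70 to 4.92 without it in LGR5lo cells, with overlap in both. The part of these marker lists in the result was not tested.

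Further genes of ribosome assembly also rose, and are described here from lists chosen by role. These lists, like the set, were chosen with earlier results of these data known. Outside the set 4 lists, with 122 genes tested of 124, held 21 genes that rose and 0 that fell in LGR5hi cells and 29 that rose and 0 that fell in LGR5lo cells, with medians of 0.31 and 0.42. Of all genes 6.18% rose and 7.28% fell in LGR5hi cells, and 4.47% rose and 3.01% fell in LGR5lo cells. Without the LGR5lo array that stood apart the counts were 30 and 23 rises, with 1 and 0 falls, where 8.52% and 4.93% of all genes rose. The other large subunit factors gave most of them, 15 of 56 in LGR5hi cells and 20 of 56 in LGR5lo cells, with Brix1 at 0.93 ± 0.15 and 0.96 ± 0.15, Eif6, the anti-association factor of the large subunit, at 0.83 ± 0.19 and 1.0 ± 0.18, and Ddx31 at 0.91 ± 0.19 and 0.77 ± 0.18. Of the other small subunit factors 4 of 43 and 8 of 43 rose, among them Rrp36 (0.88 ± 0.15 and 0.86 ± 0.14) and Pwp2 (0.81 ± 0.18 and 0.86 ± 0.17). The 4 of 43 in LGR5hi cells was not far above the 6.18% of all genes that rose there. Of the other snoRNP proteins and of the RNA exosome, the nuclease complex that trims rRNA, 0 of 11 and 0 of 14 passed in either sort (limma; at an unadjusted p below 0.05 there were 2 and 2 in LGR5hi cells and 1 and 5 in LGR5lo cells).

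**Figure D4:**
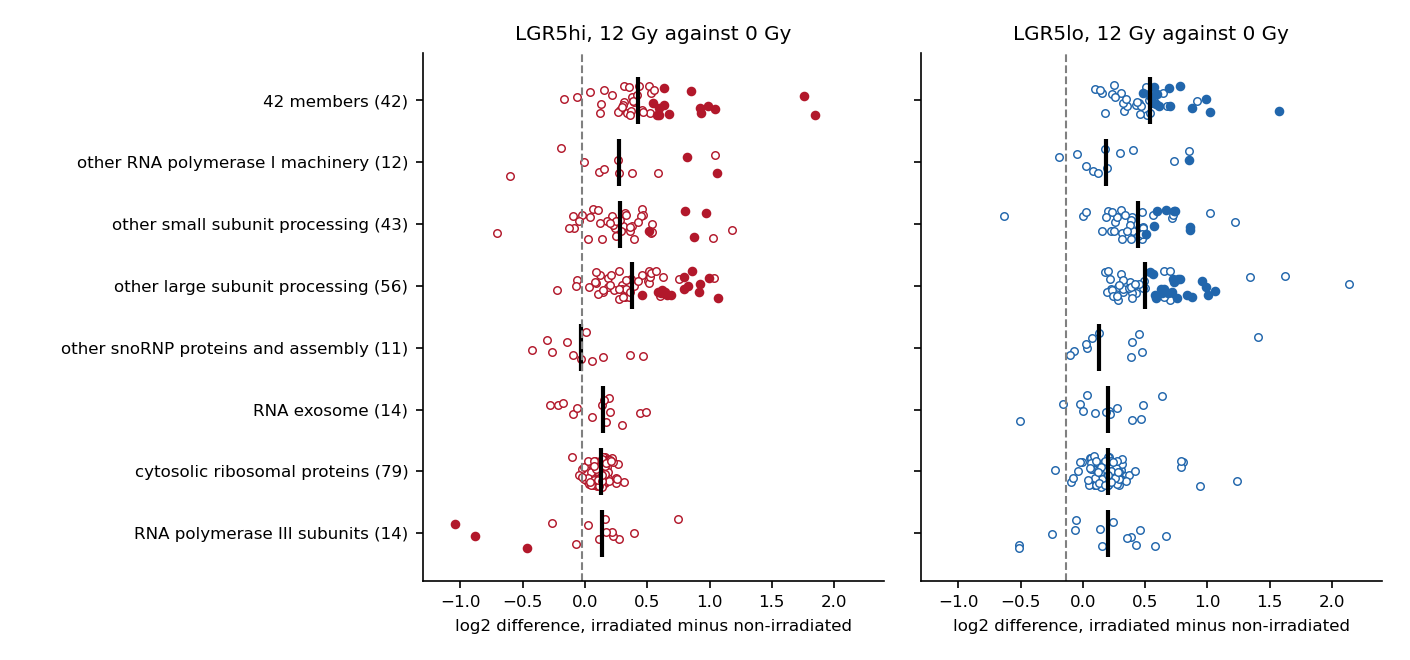
Log2 difference of irradiated minus non-irradiated cells for each gene (points) of the 42-gene set and 7 further lists, in LGR5hi (left) and LGR5lo (right) cells; filled points passed an adjusted p of 0.05, black bars are list medians and dashed lines the median of all genes, -0.02 and -0.13. Most filled points right of 0 are in the set and in the other small and large subunit lists, while no ribosomal protein, snoRNP or exosome gene is filled.

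Among the factors of rDNA transcription, Rrn3, the initiation factor that makes RNA polymerase I competent to start, rose in both sorts. It averaged 3.68 ± 0.09 in irradiated LGR5hi cells and 2.62 ± 0.16 in non-irradiated ones (SD, n = 4 each, limma), and 3.25 ± 0.10 in irradiated LGR5lo cells and 2.40 ± 0.25 in non-irradiated ones (n = 4 and 5), without overlap, with differences of 1.06 ± 0.15 (adjusted p = 0.000125) and 0.85 ± 0.14 (adjusted p = 0.00124). Polr1e, a polymerase I subunit, rose in LGR5hi cells (0.82 ± 0.23) and was 0.74 ± 0.22 higher in LGR5lo cells (adjusted p = 0.0543). Ubtf, which marks active rDNA, differed by -0.01 ± 0.26 and -0.05 ± 0.25. Of 12 such genes 2 rose in LGR5hi cells and 1 in LGR5lo cells, where 6.18% and 4.47% of all genes rose.

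The cytosolic ribosomal proteins are the parts that assembly factors put together. Of 79 genes 0 rose and 0 fell in LGR5hi cells and in LGR5lo cells (limma), and at an unadjusted p below 0.05 there were also 0 in each. Their medians were 0.13 and 0.20, with 73 of 79 positive in each sort, but the sign depended on the scaling: under quantile normalization the medians were -0.01 and 0.02. Of 14 genes of RNA polymerase III and its control, 3 fell in LGR5hi cells and 0 in LGR5lo cells: Maf1, its repressor, by 1.05 ± 0.20, Polr3gl, a subunit paralog, by 0.89 ± 0.17 and Polr3k, a small subunit, by 0.46 ± 0.14 in LGR5hi cells. Among all genes 7.28% fell in LGR5hi cells and 3.01% in LGR5lo cells.

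Members of the MYC network went both ways. Myc averaged 3.36 ± 0.21 in irradiated LGR5hi cells and 2.70 ± 0.30 in non-irradiated ones (SD, n = 4 each), a rise of 0.66 ± 0.19 (limma adjusted p = 0.0276), and was 0.80 ± 0.18 higher in irradiated LGR5lo cells (adjusted p = 0.012), without overlap in either sort. Mycn, a paralog, fell to -5.61 ± 0.84 in irradiated LGR5hi cells, against -2.40 ± 0.81 in non-irradiated ones, and to -4.19 ± 0.98 in irradiated LGR5lo cells, against -1.48 ± 0.58 in non-irradiated ones (adjusted p = 0.000575 and 0.00316). In irradiated LGR5hi cells the Mycn probe cleared background on 1 of 4 arrays, so that level is near a bound. Mxd3, a MAX partner that opposes MYC, fell by 2.97 on the log2 scale in LGR5hi cells, and fell by 1.54 in LGR5lo cells. Mycl and Mlxip also fell in both sorts. In all, 1 of 11 rose and 4 of 11 fell in each sort. Among all genes 6.18% rose and 7.28% fell in LGR5hi cells, and 4.47% rose and 3.01% fell in LGR5lo cells. Under median centring the Myc difference in LGR5hi cells was 0.62 ± 0.24 and did not pass (limma adjusted p = 0.133), and in LGR5lo cells it was 0.92 ± 0.23 (adjusted p = 0.0249).

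Few genes of the set passed between LGR5hi and LGR5lo cells. After irradiation 2 of 42 were higher in LGR5hi cells and 0 lower, where 2.21% of all genes were higher and 4.08% lower. Without irradiation 6 of 42 were higher and 0 lower, where 4.61% and 4.93% of all genes were. The median difference of LGR5hi minus LGR5lo cells was 0.27 after irradiation, against 0.05 over all genes, and 0.36 without it, against -0.08. With normexp background correction the median after irradiation was 0.23, against 0.22 over all genes. At an unadjusted p below 0.05 there were 11 of 42 after irradiation and 17 without it, where 17.9% and 25.0% of all genes passed. The sorts did not overlap, with LGR5hi cells higher, for 12 genes after irradiation and 5 without it (11.1% and 5.69% of all genes). These comparisons share their arrays with the irradiation comparisons and are not separate evidence. The mean level of the 42 genes was 3.51 ± 0.15 in irradiated LGR5hi cells, 3.01 ± 0.18 in non-irradiated LGR5hi cells, 3.22 ± 0.15 in irradiated LGR5lo cells and 2.68 ± 0.20 in non-irradiated LGR5lo cells (SD over arrays, n = 4, 4, 4 and 5). The ranges were 3.30 to 3.61, 2.81 to 3.25, 3.00 to 3.34 and 2.39 to 2.86 in that order, so irradiated and non-irradiated arrays of a sort did not overlap while the sorts did in each arm.

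**Figure D5:**
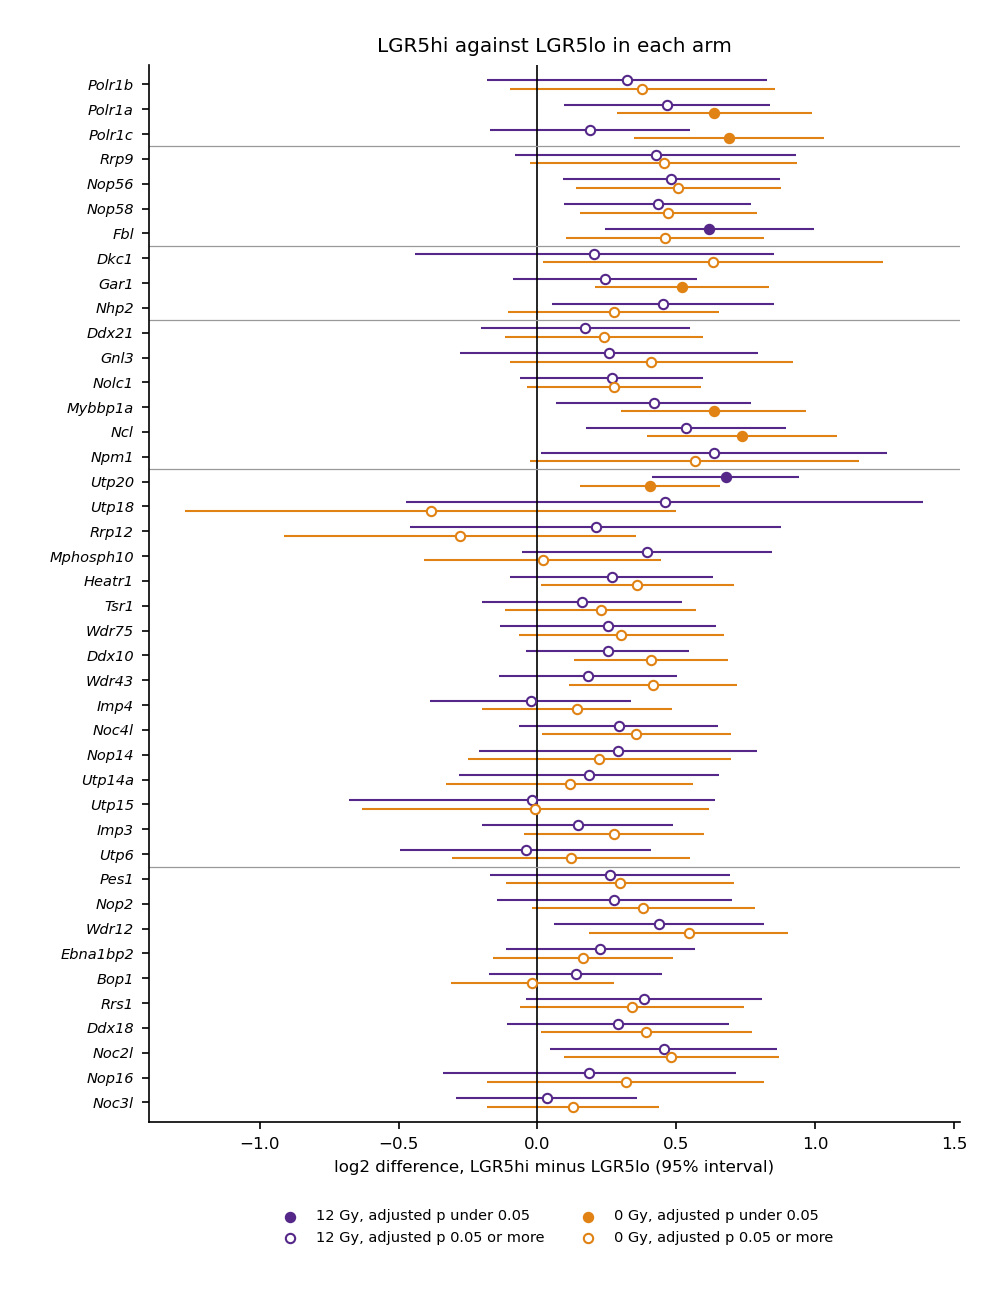
Log2 difference of LGR5hi minus LGR5lo cells for each gene after 12 Gy (purple) and without irradiation (orange), with 95% intervals from limma; filled points had an adjusted p below 0.05. Right of 0 lie 39 of 42 points after irradiation and 38 of 42 without it, with Utp20 and Fbl filled after irradiation and Ncl, Polr1c, Polr1a, Mybbp1a, Gar1 and Utp20 without it.

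Ncl, the abundant rRNA-binding protein nucleolin, had the smallest p between the sorts without irradiation. After irradiation it read 6.95, 6.61, 6.86 and 6.82 in LGR5hi cells, against 6.29, 6.12, 6.35 and 6.34 in LGR5lo cells (0.53 ± 0.17, limma adjusted p = 0.0814). Without irradiation it read 6.60, 6.53, 6.27 and 6.77 in LGR5hi cells, against 6.19, 5.48, 6.07, 5.68 and 5.61 in LGR5lo cells (0.74 ± 0.16, adjusted p = 0.00835). The sorts did not overlap in either arm. Of the polymerase I subunits, Polr1c and Polr1a passed without irradiation. After irradiation Polr1c read 3.96, 4.0, 4.03 and 4.18 in LGR5hi cells, against 3.70, 3.75, 3.92 and 4.03 in LGR5lo cells, with overlap (0.19 ± 0.17). Without irradiation it read 4.33, 4.17, 4.08 and 4.25 in LGR5hi cells, against 3.93, 3.16, 3.81, 3.24 and 3.45 in LGR5lo cells, with none (0.69 ± 0.16, adjusted p = 0.0128).

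Polr1a read 3.35, 3.45, 3.31 and 3.28 in irradiated LGR5hi cells, against 2.89, 2.74, 2.80 and 3.09 in irradiated LGR5lo cells, and 3.21, 3.24, 2.62 and 3.21 in non-irradiated LGR5hi cells, against 2.89, 2.22, 2.47, 2.34 and 2.24 in non-irradiated LGR5lo cells. The sorts were apart after irradiation (0.47 ± 0.17, limma adjusted p = 0.15) and overlapped without it (0.64 ± 0.17), where the difference passed (adjusted p = 0.0239). Gar1 read 5.70, 5.47, 5.40 and 5.18 in irradiated LGR5hi cells, against 5.28, 5.23, 5.18 and 5.08 in irradiated LGR5lo cells, and 5.41, 5.45, 5.16 and 5.12 in non-irradiated LGR5hi cells, against 5.17, 4.67, 4.72, 4.68 and 4.58 in non-irradiated LGR5lo cells. Its difference was 0.24 ± 0.16 after irradiation and passed without it (0.52 ± 0.15, adjusted p = 0.0366), where 1 LGR5lo array overlapped, and whether the difference itself changed with irradiation did not pass a test (adjusted p = 0.717). Mybbp1a, whose levels are given above, was 0.63 ± 0.16 higher in non-irradiated LGR5hi than LGR5lo cells (adjusted p = 0.0181). Utp20 was higher in LGR5hi cells in both arms, by 0.68 ± 0.12 after irradiation (adjusted p = 0.00307) and 0.41 ± 0.12 without it (adjusted p = 0.0419). Fbl was 0.62 ± 0.18 higher after irradiation, at an adjusted p of 0.0499.

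With arrays of the same number and arm paired as a replicate block, 1 of 42 genes passed after irradiation, Utp20, and 2 passed without irradiation, Ncl and Polr1c. In those fits 3.57% and 4.04% of all genes were higher in LGR5hi cells. Fbl then had an adjusted p of 0.0688 after irradiation, and Mybbp1a, Gar1, Polr1a and Utp20 had 0.0518, 0.0598, 0.0804 and 0.101 without it. Within a slide 0 genes passed in either arm (limma; at an unadjusted p below 0.05 there were 2 and 1 on slides 1 and 2 after irradiation and 1 and 7 without it), with medians of 0.27 and 0.29 on slides 1 and 2 after irradiation and 0.41 and 0.27 without it. Leaving out any array other than non-irradiated LGR5lo replicate 1, 2 or 4 left 1 gene past the threshold after irradiation; without replicate 2 there were 3. Without irradiation the count was 1 without non-irradiated LGR5hi replicate 1, 2 without its replicate 2 or its replicate 4, 3 without non-irradiated LGR5lo replicate 5 and 13 without its replicate 1, and it was 6 without the array that stood apart. The share of all genes higher in LGR5hi cells moved as well. It was 1.84% and 2.56% without non-irradiated LGR5hi replicates 1 and 2, and 8.77% and 4.26% without non-irradiated LGR5lo replicates 1 and 2. Beside these counts, most enteroendocrine, goblet and tuft markers were lower in LGR5hi cells in both arms: all 12 enteroendocrine markers after irradiation and all 12 without it, 6 of 7 and 6 of 7 goblet markers, and 6 of 8 and 8 of 8 tuft markers. The mean level of the enteroendocrine list was 0.54 to 0.77 in irradiated LGR5hi cells against 4.66 to 5.49 in irradiated LGR5lo cells, and 0.47 to 1.44 in non-irradiated LGR5hi cells against 4.35 to 4.97 in non-irradiated LGR5lo cells. The goblet list averaged 5.38 to 6.17 in irradiated LGR5hi cells against 8.09 to 8.61 in irradiated LGR5lo cells, and 5.48 to 6.49 in non-irradiated LGR5hi cells against 7.61 to 8.92 in non-irradiated LGR5lo cells. The enterocyte list overlapped between the sorts in both arms. It averaged 1.72 to 4.02 in irradiated LGR5hi cells against 3.80 to 3.98 in irradiated LGR5lo cells. Without irradiation it averaged 1.39 to 5.06 against 3.05 to 4.70. The Paneth list, with its ranges given above, also overlapped between the sorts in both arms. Of the crypt stem cell markers 9 of 11 were higher in LGR5hi cells in each arm. All 79 ribosomal protein genes also had positive differences in both arms, with medians of 0.38 and 0.43, and 0 of them passed after irradiation (limma; 26 at an unadjusted p below 0.05) and 5 without it. The part of these cells in the result was not tested.

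Across scalings and left-out arrays the comparison of effects between sorts had no fixed sign. The difference of irradiation effects, LGR5hi minus LGR5lo, was negative for 30 of 42 genes with a median of -0.06, positive for only 5 under median centring (median -0.23) and positive for 34 under quantile normalization (median 0.13). On the 75th percentile scale it was positive for 28 genes without the LGR5lo array that stood apart (median 0.03). It was positive for 26 without irradiated LGR5hi replicate 2 and 25 without non-irradiated LGR5hi replicate 4 (median 0.03 in each). Without irradiated LGR5lo replicate 2 it was positive for 10 (median -0.14). The median of all genes in LGR5lo cells moved to -0.01 under median centring, against -0.13 on the 75th percentile scale; the set's median moved the same way, to 0.66 against 0.54.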

How the data were processed

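Total RNA of FACS-sorted cells was labelled with Cy3 and hybridised to 17 one-colour Agilent arrays, scanned and extracted with Agilent Feature Extraction 10.7.3.1, per the submitters' processing notes. The processed signal intensity of each spot is background-corrected by that software, per the file headers. The authors' value table holds log2 values of the same arrays, per its own match to the scanner values, and it replaced 1 scanner file that could be read only in part (15329 spots readable, of which all 13422 probes with a single spot matched the table within 0.02).

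The log2 intensity was taken minus each array's 75th percentile. Control spots were left out, 41453 of 55681 probes above background on at least 4 of 16 arrays with flags were kept, and the brightest probe stood for each of 27780 genes. Symbols came from the files, updated through RefSeq tables for 2838 probes. The 4 groups were fitted in 1 model over all genes with limma 3.58.1 (R 4.3.3, lmFit and eBayes), p-values were adjusted by the Benjamini-Hochberg method over all genes, and errors of differences are standard errors. The fit was tested on simulated data. Tables and figures were made with Python 3.11.15, pandas 2.3.3, numpy 2.4.6 and matplotlib 3.10.9.

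The members, lists and tests were chosen with earlier results of these data known. Values on every array are given for the 8 genes that rose with the smallest p in each irradiation comparison. They are also given for up to 6 that passed in another comparison and at least 1 of every role. The 3 genes with the smallest absolute differences, summed over both sorts, were added. From each pathway list up to 3 genes that passed per comparison could be named. Arrays of the same number in the same irradiation arm deviated together (8 pairs, r 0.122 to 0.457, every one over 0.1), and were on the same slide and of the same sex. The pairing was inferred from this, and the values with it as a block are given beside the sort comparisons. Whether a shared animal, slide or sex lay behind it was not tested. Same-numbered arrays of different arms deviated together less (median r 0.076, 7 of 16 pairs over 0.1). For arrays of an arm with other numbers the median r was -0.081, with 2 of 28 pairs over 0.1. Precision is limited by the number of arrays. The alternatives tried were other scalings, background correction, probe filters, sex as a covariate, blocks, array weights, single slides and each array left out.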

Additional observations from a re-analysis of the deposited data

Results flagged for a closer look

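In 92 groups of 4 or 5 arrays, over the 23 genes given array by array, 11 held 1 array far from the others by Dixon's criterion, and chance alone gives about 1 in 20. In irradiated LGR5hi cells replicate 2 was low for Nop2 (5.12, the others 5.64 to 5.72) and Nop16 (2.09, the others 2.62 to 2.70). In irradiated LGR5lo cells replicate 1 was high for Ddx10 (0.75, the others 0.44 to 0.49). In non-irradiated LGR5hi cells replicate 3 was low for Mybbp1a (5.26, the others 5.69 to 5.70), Polr1a (2.62, the others 3.21 to 3.24) and Ebna1bp2 (4.55, the others 4.83 to 4.89), and replicate 4 was high for Pes1 (2.68, the others 2.15 to 2.24) and Polr1b (2.64, the others 1.94 to 1.99). In non-irradiated LGR5lo cells replicate 1 was high for Mybbp1a (5.46, the others 4.70 to 4.91) and Gar1 (5.17, the others 4.58 to 4.72), and Pes1 was low in replicate 2, the array that stood apart (1.54, the others 2.04 to 2.24).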

How the results depend on the processing

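Of the single-gene results that passed in the main fit, 869 values under the alternatives kept their direction and side of the threshold, 283 kept the direction only and 0 reversed. Genes that did not pass were not in this tally, and some of them changed sign. Npm1 in LGR5lo cells, for example, was 0.45 on slide 1 and -0.19 on slide 2 by its brightest probe. The count for the difference of irradiation effects stayed at 0 throughout. The 14 genes that rose in LGR5hi cells became 5 under median centring, 7 under normexp on 16 arrays, 25 with array weights, and 1 and 3 on slides 1 and 2 alone. The shares of all genes that rose in those fits were 4.86%, 4.28%, 11.3%, 0.727% and 3.22%, in that order. The 14 in LGR5lo cells became 3 when only the compared groups were fitted, and 0 and 1 on the slides alone, where 2.03%, 0.119% and 1.16% of all genes rose. The 2 that differed between sorts after irradiation became 6 under quantile normalization, 11 with array weights, 9 with only the compared groups, 1 under median centring, with no filter, with the authors' table or with slide as a block, and 0 on either slide. Of all genes 3.23%, 8.39%, 4.72%, 1.52%, 1.36%, 2.18%, 2.81%, 0.054% and 0.072% were higher in LGR5hi cells in those fits, in that order. The 6 without irradiation became 0 under normexp, with only the compared groups and on either slide, where 1.44%, 1.36%, 0.0144% and 0.18% of all genes were higher. With arrays of the same arm and number as a fixed replicate block the sort counts were 1 after irradiation and 2 without it (3.57% and 4.04% of all genes higher). With the number alone as a replicate block, 20 genes rose in LGR5hi cells and 19 in LGR5lo cells. Between the sorts 1 passed after irradiation and 7 without it. That block spans the arms, whose same-numbered arrays deviated together less. In the same order 7.23%, 5.03%, 2.91% and 3.26% of all genes were higher. Leaving out 1 array gave 7 to 19, 4 to 18, 1 to 3 and 1 to 13, in the same order. The cause of these moves was not tested, except that single slides hold 2 arrays a group. The median of all genes in LGR5lo cells was -0.13 on the 75th percentile scale and -0.01 under median centring. Utp18 was near background on part of the arrays.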
